A study of Mus musculus with 12 samples.

Results

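The replication-dependent histone genes were followed in mouse macrophages as the features of the 12 count files whose row name holds a symbol that starts with Hist1h, Hist2h, Hist3h or Hist4h. This rule found 59 of the 19549 features, of which 58 name 1 gene and 1 joins the symbols Hist1h4m and Hist1h4n. By class there were 6 features for H1, 14 for H2A, 16 for H2B, 10 for H3 and 13 for H4. By cluster, 50 belonged to Hist1, 6 to Hist2, 2 to Hist3 and 1 to Hist4. The cells were macrophages grown from the bone marrow of naive female FVB mice, an inbred strain. They were polarized for 4 h with interferon gamma (IFNG, 200 units/mL), which drives classical activation, or with interleukin 4 (IL4, 40 ng/mL), which drives alternative activation. Sequencing covered total mRNA and, from a sucrose gradient, the mRNA that carried more than 3 ribosomes (here polysome-associated mRNA), in 4 groups of 3 libraries. Unpolarized cells were not among the samples used here, so the 2 cytokines are compared only with each other, and the ages of the mice are not given in the labels. Nothing in the labels tells if replicates are separate mice or cultures, so the p-values reflect just the spread between these libraries, which may be technical.

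Histones H2A, H2B, H3 and H4 form the protein core around which DNA is wrapped in the nucleosome, and the linker histone H1 binds where DNA enters and leaves that core. The replication-dependent genes supply these proteins while DNA is copied in S phase, and most of them sit close together in clusters, often as H2A and H2B genes read in opposite directions from a shared stretch of DNA. Their messages have no introns and typically end in a conserved stem loop, bound by the protein Slbp, in place of a poly(A) tail. The libraries were made with SmartSeq2, a method that copies RNA from its poly(A) tail, so the share of all histone molecules that these counts stand for is not known.

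The RefSeq annotation of GRCm38.p6, the assembly that mm10 stands for, holds all 58 single-symbol features under newer names (Hist1h2ah is H2ac12). Its Hist1 genes lie on chromosome 13 between positions 21715711 and 23934913. The Hist2 genes lie on chromosome 3 between 96219885 and 96270192, the Hist3 genes on chromosome 11 between 58948911 and 58955192, and Hist4h4 on chromosome 6 between 136803993 and 136804431. The 250 bases before the annotated start were available in RefSeq's tables for 53 of the features. These stretches were searched on both strands for CCAAT (the box bound by NF-Y), TATAAA (the TATA box), ATTTGCAT (the octamer bound by Oct factors) and AAACACA (an element described in H1 promoters). The ends of TATAAA and CCAAT match the first letters of AAACACA and ATTTGCAT, so matches of these motifs can overlap. CCAAT was found in 84.9% of the 53 histone promoters and in 34.5% of all 27025 promoters of the table. All promoters of the classes H1, H2A, H2B and H3 in the table held it, but only 3 of 11 H4 promoters did. TATAAA stood in 52.8% of the histone promoters against 13.0% of all promoters. The octamer stood in 24.5% against 1.61%, in 7 of 14 H2A and 6 of 14 H2B promoters and in none of the promoters of other classes, and facing H2A and H2B genes share much of their windows. AAACACA stood in 17.0% against 6.22%, and in 5 of the 6 H1 promoters. These matches describe letters in a window and not factor binding.

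5 of these stretches are printed 5′ to 3′ in the direction of the gene, all from RefSeq GRCm38.p6, with matches to the 4 motifs or their reverse complements in capitals. They belong to the H3 gene with the highest level per length, an H1 gene that fell in both kinds of mRNA, an H4 gene whose stretch lacks CCAAT, the testis H2A gene that was lower on polysomes than in total mRNA in IFNG cells, and the H2A and H2B pair whose H2A gene had the smallest adjusted p on polysomes, for which the whole gap between the 2 genes is shown in the direction of Hist1h2ah. Their places are chr3:96268404-96268653 on the plus strand for Hist2h3b, chr13:21780626-21780875 on the minus strand for Hist1h1b, chr13:22041363-22041612 on the minus strand for Hist1h4i, chr13:23934187-23934436 on the plus strand for Hist1h2aa and chr13:22035644-22035820 on the minus strand for the gap between Hist1h2ah and Hist1h2bk.
Hist2h3b: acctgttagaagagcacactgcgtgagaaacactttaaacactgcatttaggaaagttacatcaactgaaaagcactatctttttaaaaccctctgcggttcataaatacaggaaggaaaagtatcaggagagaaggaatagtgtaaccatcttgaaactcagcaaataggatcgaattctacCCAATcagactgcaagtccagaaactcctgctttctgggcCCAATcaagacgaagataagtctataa
Hist1h1b: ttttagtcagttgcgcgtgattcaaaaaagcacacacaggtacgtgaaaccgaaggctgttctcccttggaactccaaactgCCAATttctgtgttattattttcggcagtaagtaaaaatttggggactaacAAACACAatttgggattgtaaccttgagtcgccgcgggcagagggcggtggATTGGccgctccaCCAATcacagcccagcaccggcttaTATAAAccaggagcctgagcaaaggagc
Hist1h4i: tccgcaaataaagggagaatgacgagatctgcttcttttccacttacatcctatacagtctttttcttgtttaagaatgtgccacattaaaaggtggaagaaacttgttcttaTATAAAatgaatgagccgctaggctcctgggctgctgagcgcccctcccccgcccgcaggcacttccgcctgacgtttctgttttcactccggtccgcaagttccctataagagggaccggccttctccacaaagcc
Hist1h2aa: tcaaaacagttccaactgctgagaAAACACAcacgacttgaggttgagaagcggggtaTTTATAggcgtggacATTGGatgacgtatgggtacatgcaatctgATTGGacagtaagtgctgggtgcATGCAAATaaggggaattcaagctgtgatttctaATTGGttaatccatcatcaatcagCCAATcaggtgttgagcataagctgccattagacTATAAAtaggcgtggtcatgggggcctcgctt
Hist1h2ah to Hist1h2bk: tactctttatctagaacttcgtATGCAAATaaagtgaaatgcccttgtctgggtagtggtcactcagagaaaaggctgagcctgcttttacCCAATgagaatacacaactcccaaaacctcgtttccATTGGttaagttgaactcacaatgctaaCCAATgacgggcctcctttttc
The Hist2h3b stretch held 2 CCAAT boxes and none of the other motifs. The Hist1h1b stretch held 3 CCAAT boxes with 1 TATA box and 1 AAACACA element. The Hist1h4i stretch held 1 TATA box and no CCAAT. The gap between Hist1h2ah and Hist1h2bk, 177 bases long, held 3 CCAAT boxes and 1 octamer.

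The libraries held 2563955 to 22014162 counts, and 3 counts corresponded to 0.184 to 1.13 CPM (counts scaled to the TMM-adjusted library size, as edgeR's cpm gives them). Polysome libraries were the shallower ones, and Lars2 took 1.78 to 29.3% of their counts against 0.341 to 2.00% of those of total mRNA. All 10 macrophage markers listed for a check of the cell type were detected and tested, and their summed level was 8239 to 25131 CPM. In total mRNA this sum overlapped between the polarizations. On polysomes it was 11320 to 17087 CPM with IFNG and 8743 to 9116 CPM with IL4. There 3 of the 10 were called higher with IFNG and 0 lower (against 7.54 and 6.58% of all features tested). The lists for other cells summed to at most 48.4 CPM in any library, apart from the megakaryocyte list, which reached 1105 CPM through Pf4. Dendritic cell markers summed to 18.1 to 32.5 CPM in IFNG total mRNA against 8.99 to 19.4 CPM in IL4 total mRNA, ranges that overlap. On polysomes their sum was 18.2 to 45.6 CPM with IFNG against 0.817 to 2.83 CPM with IL4, without overlap. Neutrophil markers summed to 10.6 to 33.6 CPM in IFNG total mRNA against 1.33 to 4.97 CPM in IL4 total mRNA. T and NK cell markers summed to 3.54 to 7.10 CPM against 1.27 to 1.89 CPM in the same groups. On polysomes the megakaryocyte list also had a lower sum with IFNG, where it came to 35.9 to 117 CPM, against 157 to 329 CPM with IL4. Of its genes Pf4 passed there (log2 fold change -1.62, adjusted p = 0.0276, edgeR). The part of these lists in the histone results was not tested.

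Histone messages were scarcer in IFNG macrophages than in IL4 macrophages, in total mRNA and on polysomes. The sums were further apart on polysomes, but no single feature passed the test of that additional difference, which is given after the 2 comparisons. In total mRNA the 59 features summed to 386, 546 and 948 CPM in IFNG replicates 1, 2 and 3 and to 3296, 1443 and 2381 CPM in IL4. All IL4 values lay above all IFNG values, and the mean was 626 ± 289 CPM with IFNG and 2373 ± 926 CPM with IL4 (SD, n = 3 each), 3.79-fold higher with IL4. On polysomes the sums were 361, 601 and 1064 CPM with IFNG and 3464, 7794 and 21333 CPM with IL4. The groups again did not overlap, but IL4 replicate 3 stood far above the other libraries, and its histone counts were 2.05% of the library. The polysome mean was 675 ± 357 CPM with IFNG and 10864 ± 9321 CPM with IL4 (SD, n = 3 each), 16.1-fold higher with IL4. Without IL4 replicate 3 the IL4 mean was 5629 CPM and the ratio 8.34. These sums carry no test. In such bulk samples, fewer cells that hold a message and less of the message per cell cannot be told apart.

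In the group means, H2A messages made the largest part of the histone signal and had the largest ratios of the 5 classes, although in IFNG polysome replicate 3 the H3 sum (433 CPM) was above that of H2A (321 CPM). The H2A sum was 5.22-fold higher with IL4 in total mRNA, at 268 ± 117 CPM with IFNG and 1401 ± 691 CPM with IL4, and 27.6-fold higher on polysomes, at 253 ± 86.2 against 6987 ± 6644 CPM (SD, n = 3 each). Without IL4 polysome replicate 3 the polysome ratio for H2A was 12.7. H3 followed with 3.22-fold in total mRNA and 12.3-fold on polysomes, where the sums were 126, 134 and 433 CPM with IFNG and 1118, 2474 and 4937 CPM with IL4. The ratios for H4 were 2.09 in total mRNA and 5.89 on polysomes, for H2B 2.00 and 7.60, and for H1 1.86 and 4.20. Without IL4 polysome replicate 3, the polysome ratios were 7.78 for H3, 4.59 for H2B, 3.40 for H1 and 2.96 for H4. For all 5 classes the libraries of the polarizations did not overlap in either kind of mRNA. In total mRNA the gap was narrow for H1, H2B and H4. There the highest IFNG and lowest IL4 sums were 61.6 and 68.5 CPM for H1. They were 16.6 and 18.0 CPM for H2B, and 106 and 117 CPM for H4.

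**Figure D1:**
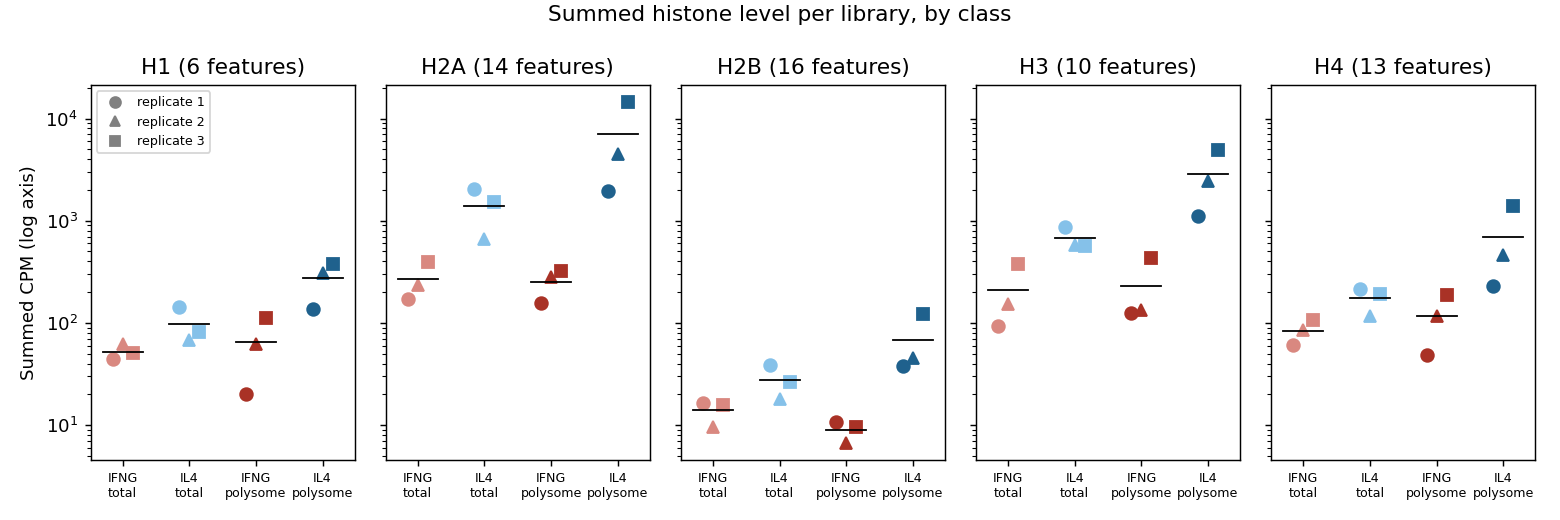
Summed CPM (log axis) of the features of each histone class, with 1 symbol for each library, its shape marking the replicate, and a line at the mean of each group. The IL4 libraries lie above the IFNG libraries of the same kind in every class, and IL4 polysome replicate 3 is the highest library of each panel, at 14515 CPM for H2A.

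The classes also took different shares of the histone counts. H2A held 43.2 ± 1.13% of the summed CPM in IFNG total mRNA and 57.0 ± 9.69% in IL4 total mRNA, and 40.1 ± 8.81% against 60.6 ± 6.48% on polysomes (SD, n = 3 each). H4 held 14.1 ± 2.57% against 7.59 ± 0.906% in total mRNA and 16.8 ± 3.05% against 6.36 ± 0.350% on polysomes. H1 held 9.37 ± 3.51% against 4.16 ± 0.686% in total mRNA and 8.85 ± 2.85% against 3.21 ± 1.25% on polysomes. H3 held between 29.1 and 32.6% in the group means, with SDs of 5.13 to 9.44 and single libraries from 22.2 to 40.7%. H2B, although it has the most features, held 0.746 to 2.57% in the group means.

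Per kilobase of annotated gene, Hist2h3b (chromosome 3, 96268654 to 96269155), which encodes an H3 protein, had the highest level in each group among the single-symbol features that span under 1000 bases, which leaves out Hist1h2bc, Hist1h2be, Hist1h2bp and Hist2h2be. It stood at 212 CPM per kilobase in IFNG total mRNA, 883 in IL4 total mRNA, 285 in IFNG polysomes and 3764 in IL4 polysomes. In IL4 polysomes the next were the H2A genes Hist1h2ai, Hist1h2ad, Hist1h2ag and Hist1h2ab, at 2166, 2022, 1947 and 1766 CPM per kilobase, differences smaller than the spread between the 3 libraries. In IFNG total mRNA the second was Hist1h2ag at 82.5 and the third the H4 gene Hist1h4d at 77.3 CPM per kilobase.

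Each feature was then tested with edgeR's quasi-likelihood test, with Benjamini-Hochberg adjustment over all 10421 features that passed the filter on low counts and a threshold of 0.05. Of the 59 histone features 52 were tested, and 47 of these had reads in all 12 libraries. The testis H1 gene Hist1h1t had no read in any library. The other untested ones were 6 H2B features (Hist1h2ba, Hist1h2bb, Hist1h2bk, Hist1h2bn, Hist1h2bp and Hist3h2ba), whose levels reached at most 5.29 CPM. Since a feature can pass that filter through the group where it is high, the counts of tested features describe only those that passed.

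In total mRNA, 9 of the 52 tested histones were lower with IFNG and 0 were higher (17.3% lower, against 3.93% of all features tested lower and 7.08% higher). No histone was higher at an unadjusted p under 0.05 or by DESeq2's Wald test, which called 12 lower (and 583 of all 10421 features tested). Of the 9, 8 were H2A genes and 1 was the H1 gene Hist1h1b. None of the 10 H2B, 10 H3 and 13 H4 features passed the threshold. Of them 9 had an unadjusted p under 0.05, namely 5 H3, 2 H2B and 2 H4 features. Of all features tested, 21.5% had such a p in either direction. The H3 share was above this value, and the H2B and H4 shares were below it. The median log2 fold change of the 52 was -1.17, against 0.04 over all features tested, and 50 of the 52 were negative. For 19 features the IFNG libraries all lay below the IL4 libraries (12.3% of all features tested did so). A fit with the replicate number as a block gave 16 lower, the 9 and 7 others, among them the H3 genes Hist2h3b, Hist1h3i, Hist1h3b and Hist1h3d. That fit called 584 of all 10421 features tested lower, against 410 in the main fit. Of 55 tested, 4 were lower without IFNG total replicate 2 (7.27%, against 2.24% of all features), 4 without IL4 total replicate 1 (against 2.69%) and 16 without IFNG total replicate 3 (29.1%, against 4.44%), and the count was 18 of 58 with no filter on low counts (against 3.94% of all features).

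Among the genes lower in total mRNA, Hist1h2ak (chromosome 13, 21753377 to 21753912) stood at 17.7, 11.6 and 31.4 CPM in the IFNG libraries and at 185, 93.5 and 137 CPM in the IL4 libraries. Its log2 fold change was -2.77 (SE 0.58, adjusted p = 0.00219, edgeR). Hist1h1b, a replication-dependent linker histone, stood at 2.41, 2.67 and 5.18 CPM with IFNG and 26.1, 13.6 and 23.8 CPM with IL4. All IL4 values of both genes lay above all IFNG values. The log2 fold change of Hist1h1b was -2.62 (SE 0.57, adjusted p = 0.00303, edgeR). Hist1h2ah (chromosome 13, 22035122 to 22035643) stood at 14.1, 7.21 and 28.6 CPM with IFNG and 173, 89.3 and 125 CPM with IL4. Here too the groups were apart, with a log2 fold change of -2.96 (SE 0.67, adjusted p = 0.00436, edgeR). The other called H2A genes had log2 fold changes of -2.29 for Hist1h2ac, -2.59 for Hist1h2ae, -1.92 for Hist1h2ag, -3.01 for Hist1h2af and -3.12 for Hist1h2ab. Hist1h2an had the most negative value, -3.90, but stood at 71.8, 4.84 and 4.43 CPM in the IL4 libraries against 1.52, 1.05 and 2.76 CPM with IFNG, and its call was lost without IL4 total replicate 1, IFNG total replicate 2, IFNG total replicate 3 or IFNG polysome replicate 1. Of the 9 calls, those of Hist1h2ak, Hist1h1b, Hist1h2ah and Hist1h2ac held whichever library was left out. The calls of Hist1h2ae, Hist1h2ag, Hist1h2af and Hist1h2ab were each lost without IFNG total replicate 2 and without IL4 total replicate 1, and those of Hist1h2af and Hist1h2ab also without several others.

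On polysomes 43 of the 52 tested histones were lower with IFNG and 0 were higher (82.7% lower, against 6.58% of all features tested lower and 7.54% higher). Again no histone was higher at an unadjusted p under 0.05 or by DESeq2's Wald test, which called 44 lower (and 914 of all 10421 features tested). All 9 genes called in total mRNA were among the 43. The calls took in 14 of 14 H2A, 10 of 10 H3, 4 of 5 H1, 7 of 10 H2B and 8 of 13 H4 features. By cluster they were 38 of 44 tested Hist1 features, 4 of 6 Hist2 features, the 1 tested Hist3 feature and not Hist4h4. The median log2 fold change was -2.94 against -0.06 over all features tested, and all 52 were negative. For 45 of the 52 the libraries of the groups did not overlap (16.0% of all features tested lay lower without overlap). Without IL4 polysome replicate 3, 24 of 53 were lower (45.3%, against 3.29% of all features in that fit), all of them among the 43. These were 11 H2A, 10 H3, 2 H1 and 1 H4 features and no H2B feature.

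**Figure D2:**
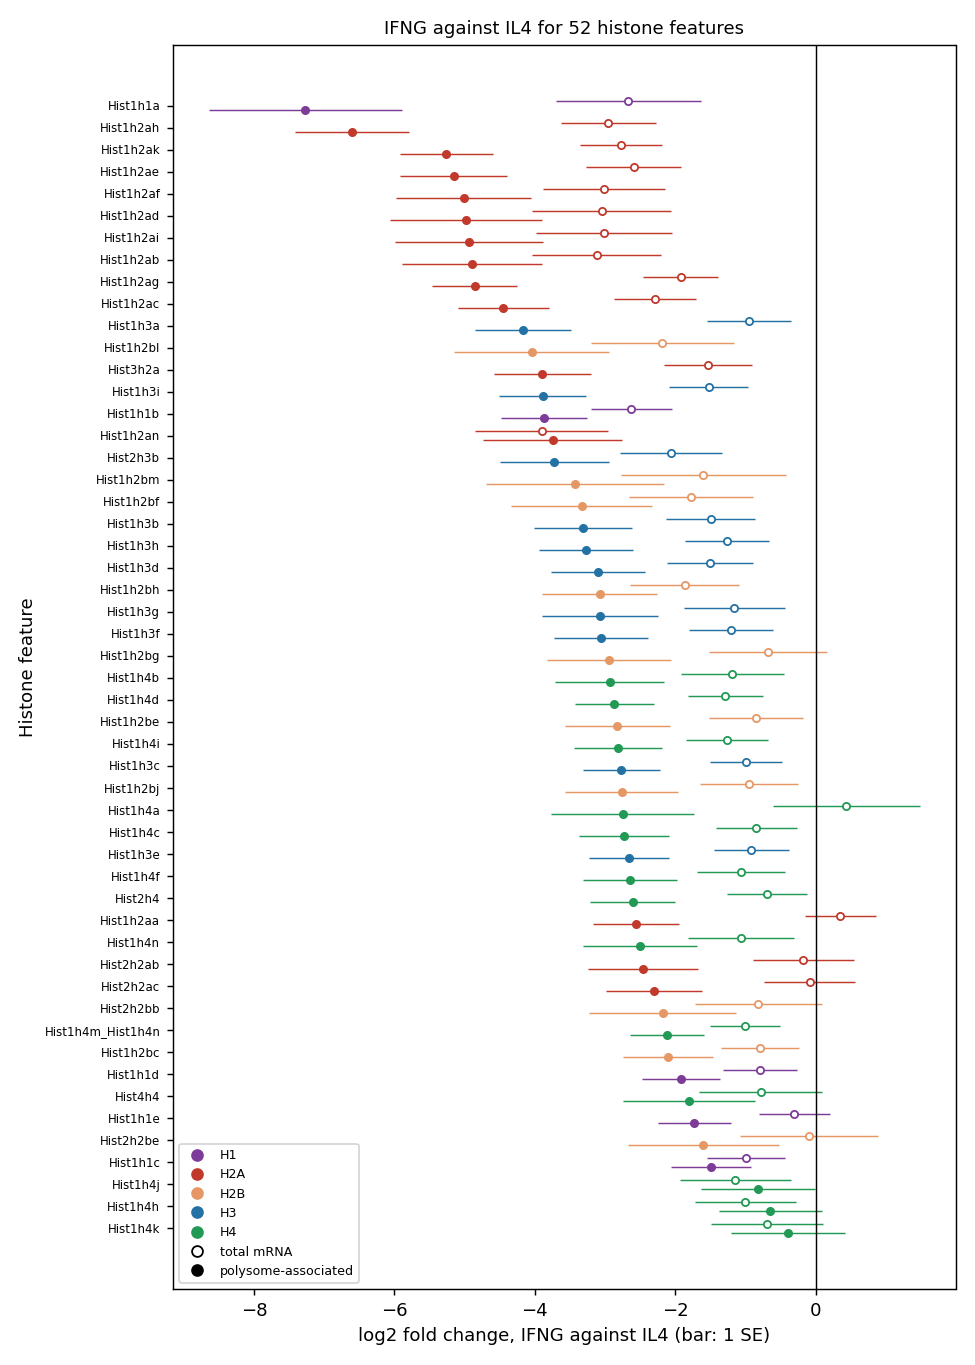
Log2 fold change of IFNG against IL4 for the 52 tested histone features, with open symbols for total mRNA, filled symbols for polysome-associated mRNA, bars of 1 SE and colours for the class. All filled symbols lie below 0, and the H2A genes gather near the top, around their polysome median of -4.88.

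The H2A genes had the most negative values on polysomes, with a median log2 fold change of -4.88. Hist1h2ah stood at 4.67, 6.52 and 8.13 CPM in the IFNG polysome libraries and at 95.6, 396 and 1350 CPM in the IL4 ones. Every IL4 library lay far above every IFNG library, and the log2 fold change was -6.60 (SE 0.81, adjusted p = 5.4e-06, edgeR). Hist1h2ag (chromosome 13, 22042478 to 22042949) stood at 20.9, 31.1 and 43.6 CPM with IFNG and 342, 482 and 1934 CPM with IL4, a log2 fold change of -4.86 (SE 0.61, adjusted p = 6.7e-06, edgeR). Hist1h2ak stood at 10.8, 14.3 and 21.8 CPM with IFNG and 178, 397 and 1200 CPM with IL4, a log2 fold change of -5.26 (SE 0.66, adjusted p = 6.8e-06, edgeR). In all 3 genes IL4 replicate 3 was the highest library and the groups were far apart. Hist1h2ac and Hist1h2ae fell by 4.45 and 5.16 on the log2 scale, and Hist3h2a, the only tested feature of the Hist3 cluster, fell by 3.89. The last overlaps Trim17 in the annotation, and reads of the 2 genes cannot be told apart here. Hist1h2ad, Hist1h2ai, Hist1h2ab and Hist1h2af had log2 fold changes of -4.98, -4.94, -4.90 and -5.01, and each lost its call without IFNG polysome replicate 1, as did Hist1h2ad and Hist1h2ai without IFNG polysome replicate 3. Smaller values were -3.74 for Hist1h2an, -2.56 for Hist1h2aa, -2.46 for Hist2h2ab and -2.30 for Hist2h2ac, and the calls of Hist1h2an, Hist2h2ab and Hist2h2ac did not hold without IL4 polysome replicate 3 or without several other libraries.

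The H3 genes had a median of -3.19 on polysomes, and 9 of the 10 calls held whichever library was left out. Hist2h3b stood at 76.6, 86.6 and 267 CPM with IFNG and 673, 1492 and 3504 CPM with IL4 on polysomes. The groups did not overlap, and the log2 fold change was -3.72 (SE 0.78, adjusted p = 0.00204, edgeR). Hist1h3i and Hist1h3a had log2 fold changes of -3.89 and -4.16. The others were Hist1h3b (-3.32), Hist1h3h (-3.27), Hist1h3d (-3.10), Hist1h3g (-3.07), Hist1h3f (-3.06), Hist1h3c (-2.77) and Hist1h3e (-2.66). Counts of Hist1h3a, Hist1h3c and Hist1h3e were close in 11 of 12 libraries but were 1740, 175 and 126 in IL4 polysome replicate 3. Leaving out replicate 2 of either polysome group ended the call of Hist1h3g.

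Of the H4 genes, 8 of 13 fell, with a class median of -2.61. Hist1h4d, the H4 gene with the highest mean level, stood at 20.8, 44.4 and 60.2 CPM with IFNG and 99.3, 214 and 596 CPM with IL4 on polysomes. Its groups did not overlap, its log2 fold change was -2.87 (SE 0.56, adjusted p = 0.0012, edgeR), and its call held whichever library was left out. The calls of Hist2h4 (-2.61), Hist1h4i (-2.82), Hist1h4b (-2.94), Hist1h4f (-2.65), Hist1h4c (-2.73), Hist1h4n (-2.50) and the joined Hist1h4m_Hist1h4n (-2.12) were all lost without IL4 polysome replicate 3. The features Hist1h4a, Hist4h4, Hist1h4j, Hist1h4h and Hist1h4k did not pass, at log2 fold changes of -2.75, -1.81, -0.83, -0.65 and -0.39. Hist4h4, the only gene of its cluster, stood at 0.617, 0.631 and 5.17 CPM with IFNG and 2.32, 2.83 and 15.1 CPM with IL4, so the groups overlapped.

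Of the 5 tested linker histones, 4 fell. Hist1h1b stood at 1.85, 4.62 and 9.23 CPM with IFNG and 30.8, 64.1 and 121 CPM with IL4 on polysomes. The groups were apart, with a log2 fold change of -3.87 (SE 0.62, adjusted p = 0.000134, edgeR). Hist1h1a had 1 count in all IFNG polysome libraries together and 99 counts in the IL4 ones, a ratio of 145 with a 95% counting interval of 25.5 to 5802 that covers counting error only. Its adjusted p was 0.000846 (edgeR), and its fitted log2 fold change of -7.27 depends on the prior count. Hist1h1d and Hist1h1e fell by 1.92 and 1.73 on the log2 scale, calls that each needed replicates 2 and 3 of the IL4 polysome group and replicates 1 and 2 of the IFNG polysome group. Hist1h1c did not pass, at -1.49 (adjusted p = 0.0885, edgeR).

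H2B messages were low throughout, with mean levels over the 12 libraries of 1.02 to 5.69 CPM among the 10 tested features, and no H2B feature passed in total mRNA. On polysomes 7 were lower. Hist1h2bc, the one with the highest mean level, stood at 2.55, 0.420 and 1.11 CPM with IFNG and 5.72, 4.25 and 9.46 CPM with IL4, without overlap and with a log2 fold change of -2.10 (SE 0.64, adjusted p = 0.0305, edgeR). The others were Hist1h2bl (-4.04), Hist1h2bf (-3.33), Hist1h2bh (-3.08), Hist1h2bg (-2.94), Hist1h2be (-2.83) and Hist1h2bj (-2.77). All 7 calls were lost without IL4 polysome replicate 3. Hist1h2bm (-3.43), Hist2h2bb (-2.18) and Hist2h2be (-1.60) did not pass.

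**Figure D3:**
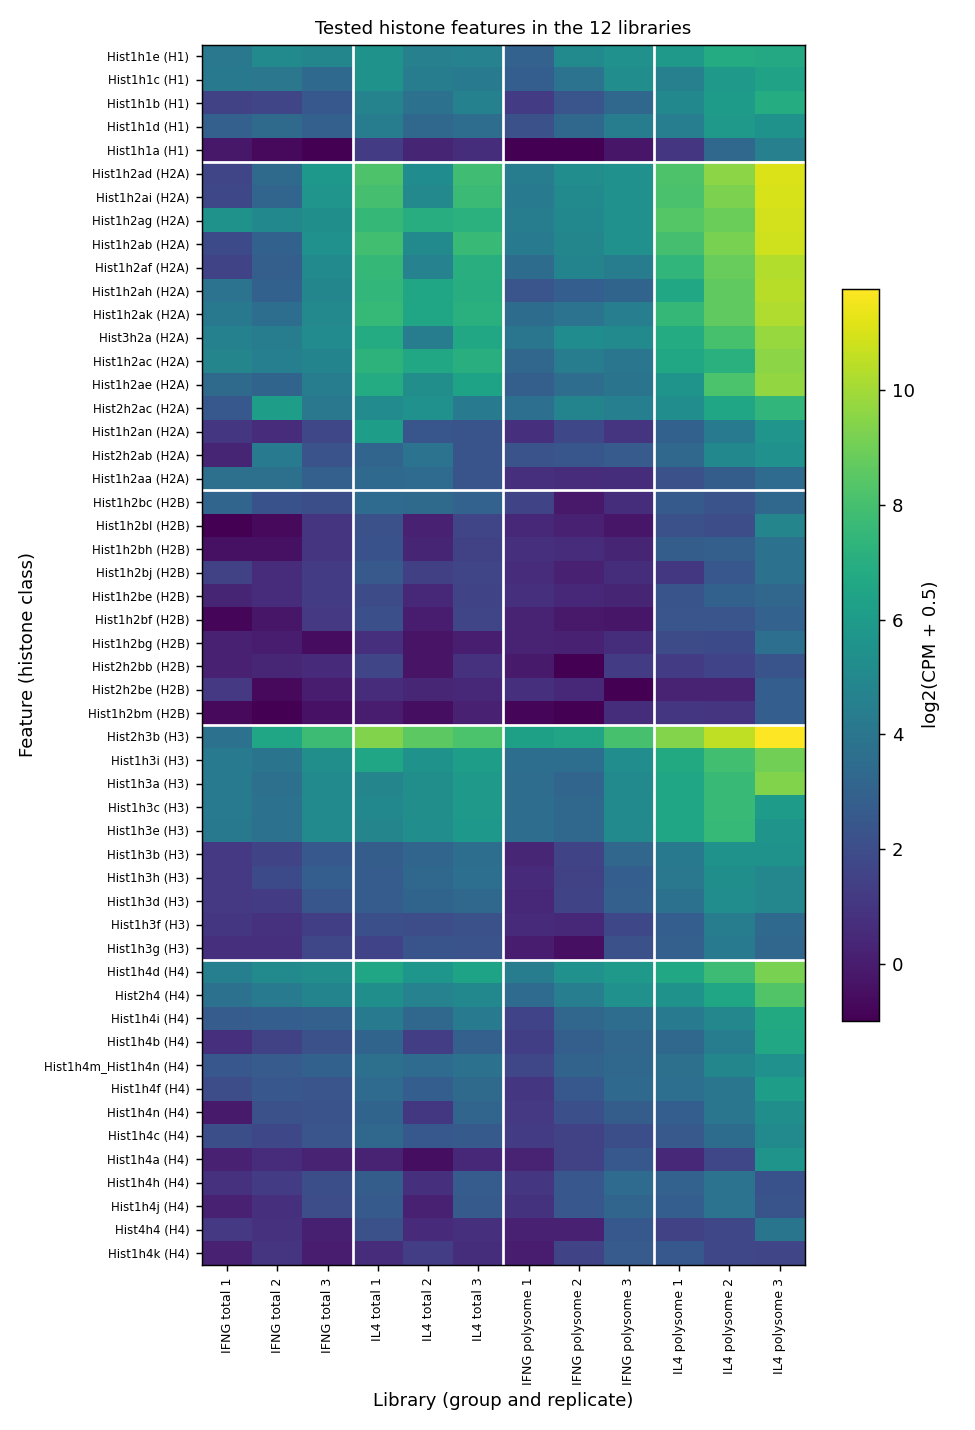
Level of each tested histone feature in each library as log2(CPM + 0.5), ordered by class and, within a class, by mean level, with white lines between classes and between groups. IL4 polysome replicates 2 and 3 had the highest H2A and H3 sums, and H2B is the darkest class. For H2A, IL4 polysome replicate 1 summed to 1942 CPM, below the 2029 CPM of IL4 total replicate 1.

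Whether the polysome difference went beyond the difference in total mRNA was tested as an interaction. No histone passed, nor did any other feature (0% of those tested), and DESeq2's Wald test also called 0 histones. At an unadjusted p under 0.05 there were 20 of the 52 histones (38.5%), 9 of them H2A and 6 H3, against 1.69% of all features tested. The median interaction of the 52 was -1.82 on the log2 scale against -0.10 over all features tested, and 48 were negative. Hist1h2ah stood at -3.65 (SE 0.93), Hist1h3a at -3.21 (SE 0.87) and Hist1h2ag at -2.94 (SE 0.74), each with an adjusted p of 1 by edgeR. Without the filter on low counts these 3 and no other histone passed, with adjusted p of 0.000411, 0.00338 and 0.031 (edgeR), where 0.0294% of all features were called lower. The values of Hist1h3a include IL4 polysome replicate 3, the library in which its counts parted from those of Hist1h3c and Hist1h3e. Without IL4 polysome replicate 3 the median over the histones was -0.94, and without IFNG total replicate 3 it was -1.20.

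Few histones differed between polysome-associated and total mRNA in IFNG cells. There 0 of 52 were higher on polysomes and 2 were lower (3.85% lower, against 17.0% of all features tested lower and 8.93% higher), with a median log2 difference of 0.10, which became -0.34 without IFNG polysome replicate 3 and 0.39 without IFNG polysome replicate 1. None was higher at an unadjusted p under 0.05 or by DESeq2. The 2 were Hist1h2aa and Hist1h2bc. Hist1h2aa, which encodes the H2A variant of the testis, stood at 12.5, 12.4 and 7.0 CPM in IFNG total mRNA and 1.23, 1.05 and 1.11 CPM in IFNG polysomes, a log2 difference of -3.20 (SE 0.60, adjusted p = 0.00111, edgeR). The groups did not overlap, and the call held whichever library was left out. In total mRNA Hist1h2aa did not pass between the polarizations, at 9.86, 10.7 and 4.49 CPM with IL4 and a log2 fold change of 0.35 (adjusted p = 0.816, edgeR). It overlaps the noncoding gene Gm33516 in the annotation, and their reads cannot be told apart. Hist1h2bc had a log2 difference of -1.87 (SE 0.62, adjusted p = 0.0312, edgeR), a call lost without IFNG polysome replicate 2, IFNG polysome replicate 3 or IFNG total replicate 1, each of which left 1 lower histone.

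In IL4 cells 26 of the 52 histones were higher on polysomes than in total mRNA and 0 were lower (against 13.2% of all features tested higher and 15.9% lower), with a median log2 difference of 1.74 against 0.06 over all features tested. None was lower at an unadjusted p under 0.05, and DESeq2 called 31 higher and 0 lower (against 1670 higher and 1931 lower of all 10421 features tested). For 26 features the polysome libraries all lay above the total libraries (23.4% of all features tested did so). The calls were 8 of 10 H3, 4 of 5 H1, 7 of 14 H2A, 6 of 13 H4 and 1 of 10 H2B features. This count depended on single libraries: it was 4 of 53 without IL4 polysome replicate 3, which at 7.55% is below the 7.89% of all features called higher in the same fit. It was 6 of 55 (10.9%, against 4.88% of all features) without IL4 total replicate 2, 17 of 53 (32.1%, against 9.05%) without IL4 polysome replicate 2 and 17 of 55 (30.9%, against 6.52%) without IL4 total replicate 1. The 4 called without IL4 polysome replicate 3 were Hist1h2ag, Hist1h3a and Hist1h3c, which are among the 26, and Hist1h3e, which is not. Of the 26, only Hist1h2ag and Hist1h3a were called whichever library was left out.

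Hist1h2ag stood at 179, 123 and 141 CPM in IL4 total mRNA and 342, 482 and 1934 CPM in IL4 polysomes, a log2 difference of 2.64 (SE 0.54, adjusted p = 0.00247, edgeR). Every polysome library was higher than every total library. The next by adjusted p was Hist1h3a, at 28.0, 38.9 and 57.9 CPM against 91.3, 196 and 658 CPM (2.92, SE 0.64, adjusted p = 0.00344, edgeR). Its counts were close to those of Hist1h3c and Hist1h3e in 11 of 12 libraries, as described below. In IL4 polysome replicate 3, however, those genes stood at 66.2 and 47.7 CPM against its 658 CPM, so its size here is uncertain. Hist1h4a rose by 4.84, but its polysome values of 0.817, 2.83 and 47.7 CPM put nearly all of that in replicate 3. Among the H2A genes, Hist3h2a, Hist1h2ak, Hist1h2ae, Hist1h2ah, Hist1h2af and Hist1h2ab followed at 2.10 to 2.51. The H3 genes Hist1h3i, Hist1h3b, Hist1h3d, Hist2h3b, Hist1h3f, Hist1h3c and Hist1h3h lay between 1.46 and 2.09. The H1 genes Hist1h1a, Hist1h1b, Hist1h1e and Hist1h1d were at 3.17, 1.76, 1.54 and 1.58. The H4 genes Hist1h4b, Hist2h4, Hist1h4d, Hist1h4i and Hist1h4f were at 2.92, 2.23, 2.00, 1.72 and 1.86, and the only H2B gene, Hist1h2bg, was at 3.10.

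Among the genes of RefSeq's promoter table, 8 facing pairs of an H2A and an H2B gene were found, with a gap of 163 to 280 bases between their starts. Pairs with a gene outside that table were not analysed. Within these pairs the H2A gene had more counts than its H2B partner in all 12 libraries. Per kilobase and over the 7 pairs in which both genes span under 1000 bases, the H2A level was 21.8 to 77.6 times the H2B level in IFNG total mRNA and 11.6 to 273 times in IL4 total mRNA. On polysomes the ratio was 6.04 to 57.8 with IFNG and 5.79 to 486 with IL4. Such ratios rest on few H2B counts and are imprecise. Over the 3 libraries of a group, 6.04 rests on 3 counts of Hist1h2ba, 57.8 on 11 of Hist1h2bf and 486 on 11 of Hist1h2bk. Hist1h2ba also overlaps the noncoding gene Gm33516 in the annotation. The pair Hist1h2ah and Hist1h2bk, whose gap is printed above, had 11937 against 57 counts over all libraries, with ratios of 33.8 and 270 in IFNG and IL4 total mRNA. The testis pair Hist1h2aa and Hist1h2ba had 864 against 61 counts, with ratios of 24.3 and 11.6. On polysomes all 8 H2A genes of the pairs were called lower with IFNG, as were all 4 of the H2B partners that were tested (against 6.58% of all features tested). These 4 partners had 11 to 18 counts each in the IFNG polysome libraries together. Their calls were lost without IL4 polysome replicate 3, and the other partners were too low to be tested.

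**Figure D4:**
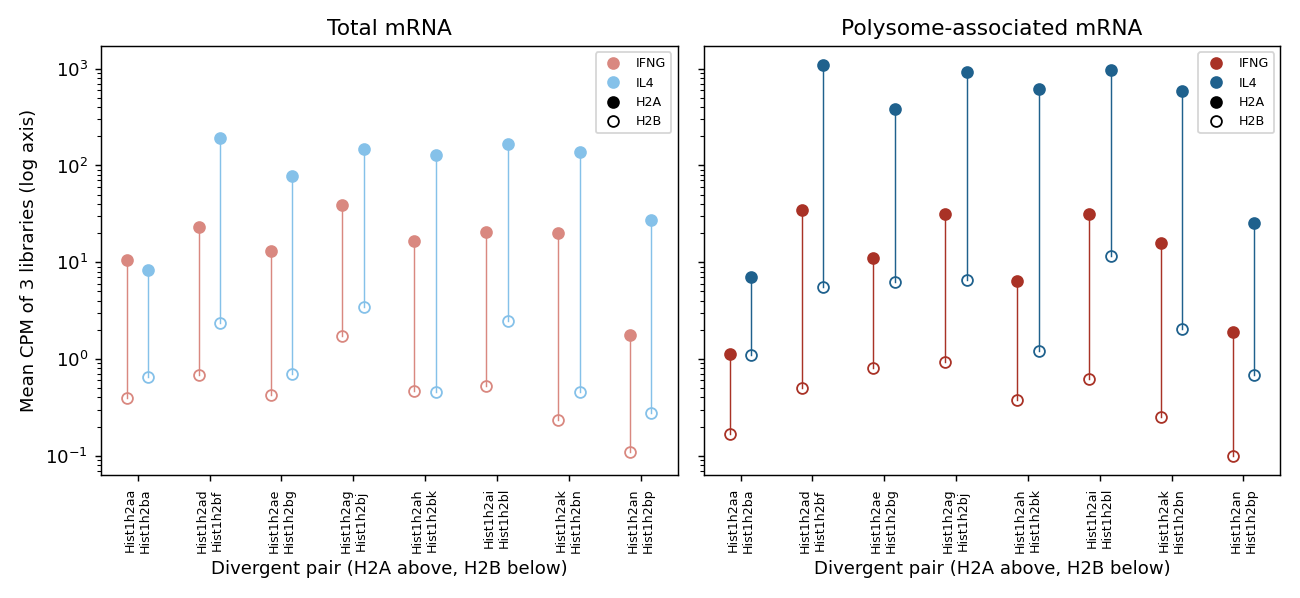
Mean CPM of 3 libraries (log axis) for the 8 facing H2A (filled) and H2B (open) gene pairs, with a line joining the partners, in total mRNA on the left and polysome-associated mRNA on the right. In every pair and group the H2A gene lies above its H2B partner.

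Near-identical genes can share reads, and the counter is not given in the sources used here. Counts of 2 genes were called near equal where they differed by at most 10% with at least 20 counts each. The H3 genes Hist1h3a, Hist1h3c and Hist1h3e were near equal in 11 of 12 libraries, for example 283, 281 and 278 counts in IFNG total replicate 1 and 915, 940 and 883 counts in IL4 total replicate 3. The exception was IL4 polysome replicate 3, with 1740, 175 and 126 counts. Hist1h2ab and Hist1h2ai were near equal in 9 libraries and Hist1h2af and Hist1h2ak in 7. Elsewhere Hist1h2af and Hist1h2ak could be far apart, at 41 against 279 counts in IFNG total replicate 1 and 407 against 1526 in IL4 total replicate 2. Values of these genes are therefore uncertain one by one, and near-equal genes are not independent of each other. An alternative added after seeing the data kept 1 gene for each such group. Then 7 of 48 were lower in total mRNA (against 3.93% of all features tested) and 39 of 48 on polysomes (against 6.58%). In IL4 cells 23 of 48 were higher on polysomes than in total mRNA (against 13.2%). Genes near equal in under 6 libraries were kept apart, such as Hist1h2ad and Hist1h2ai with 5. The genes kept may thus still depend on each other.

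**Figure D5:**
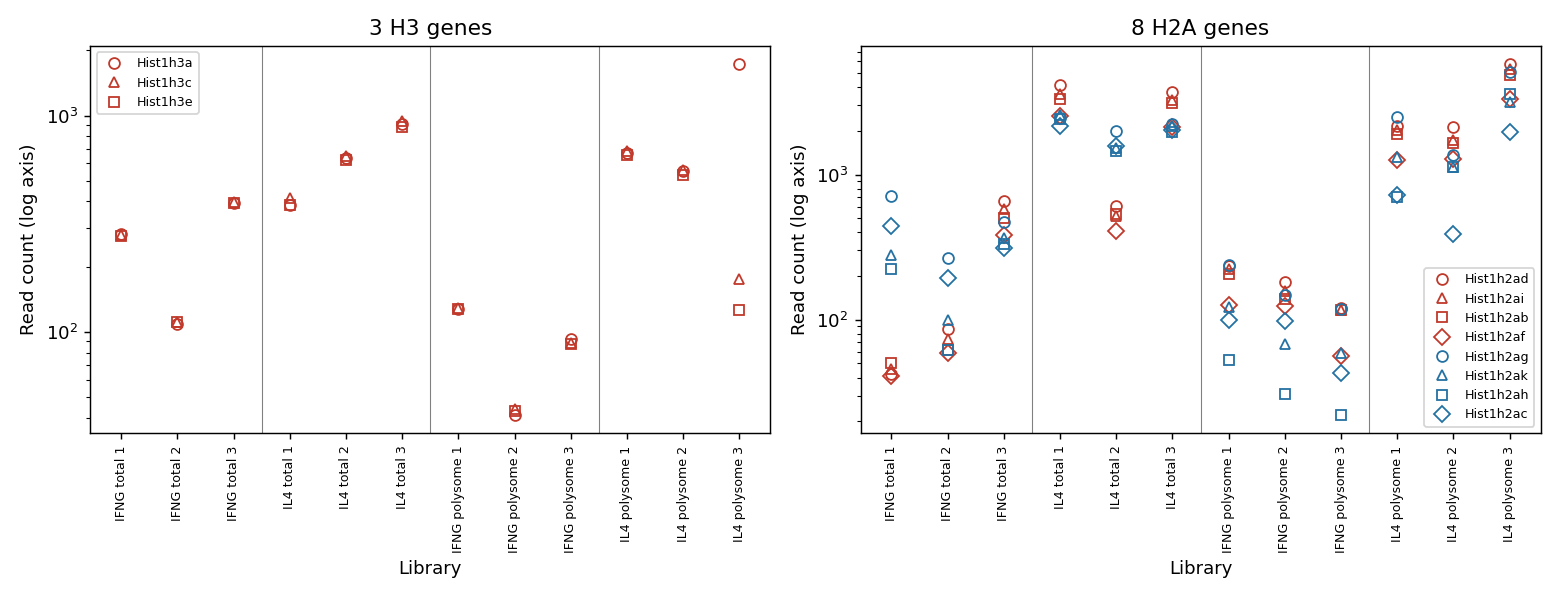
Read counts per library (log axis) of 3 H3 genes on the left and 8 H2A genes on the right, with vertical lines between groups. The 3 H3 genes lie on top of each other in 11 libraries and separate in IL4 polysome replicate 3, and the H2A genes in red lie below all of those in blue in IFNG total replicate 1 and IL4 total replicate 2.

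Some genes of DNA replication, which are active in the same phase of the cell cycle, were also lower with IFNG. Of 33 tested genes of S phase, 15 were lower in total mRNA (against 3.93% of all features tested) and 17 on polysomes (against 6.58%), with 0 higher in either and medians of -1.49 and -1.61. The others did not pass, among them Pcna, the sliding clamp of DNA polymerases, at -0.22 in total mRNA, and Cdt1, a loader of the replicative helicase, at 0.76. The DNA polymerase subunit gene Pola1 had a log2 fold change of -2.84 in total mRNA and -2.72 on polysomes, the nucleotide enzyme gene Dut -2.12 in total mRNA, and the ribonucleotide reductase gene Rrm1 -2.10 on polysomes. The summed level of this list was 752 to 1296 CPM in IFNG total mRNA, 1694 to 1906 in IL4 total mRNA, 999 to 1178 on IFNG polysomes and 2093 to 3173 on IL4 polysomes, the last value being that of replicate 3. Its groups did not overlap between polarizations in either kind of mRNA, and its part in the histone difference was not tested. On polysomes against total mRNA, 7 of the 33 were higher and 4 lower in IL4 cells (against 13.2 and 15.9% of all features tested), and 4 were higher and 2 lower in IFNG cells (against 8.93 and 17.0%).

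Of the histones made independently of replication, 9 were tested, and 3 were lower in total mRNA and 4 on polysomes (against 3.93 and 6.58% of all features tested). They were H2afv, Cenpa and H2afx, with log2 fold changes of -2.22, -2.04 and -1.63 in total mRNA, and on polysomes also H2afj at -1.75. Cenpa encodes the H3 variant of centromeres and H2afx the H2A variant phosphorylated at DNA breaks. H2afz, H3f3a and H3f3b did not pass in either kind of mRNA. On polysomes against total mRNA, 7 of these 9 were lower and 0 higher in IFNG cells (against 17.0% of all features tested lower), with a median of -1.63, and 2 were lower and 0 higher in IL4 cells (against 15.9% lower).

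Among the 17 tested genes that process or degrade histone messages, edgeR called none between the polarizations in total mRNA or on polysomes. At an unadjusted p under 0.05 there was 1 in total mRNA, higher with IFNG, and 2 on polysomes, lower with IFNG. Of all features tested, 21.5% in total mRNA and 26.9% on polysomes had such a p in either direction. Slbp, which binds the stem loop, averaged 34.7 ± 8.06 CPM with IFNG and 44.4 ± 7.53 CPM with IL4 in total mRNA, and 61.5 ± 30.7 against 136 ± 39.4 CPM on polysomes (SD, n = 3 each; adjusted p = 0.072, edgeR). On polysomes against total mRNA in IL4 cells, 4 of the 17 were higher and 2 lower (against 13.2 and 15.9% of all features tested). Slbp was among the higher ones, at 1.62 on the log2 scale (SE 0.42, adjusted p = 0.00864, edgeR), and the lower ones were Lsm1 at -3.34 and Lsm10, a subunit of the U7 particle that cuts histone messages, at -2.86. Of 15 tested histone chaperones and assembly factors, 3 were lower in total mRNA and 4 on polysomes (against 3.93 and 6.58% of all features tested). The 3 were Chaf1b, Chaf1a and Asf1b, which hand H3 and H4 to new DNA, and Nasp joined them on polysomes. Chaf1b stood at -1.88 and -2.52. Daxx, a chaperone of the replication-independent H3.3, was the 1 gene higher with IFNG in both, by 2.57 and 3.10 (against 7.08 and 7.54% of all features tested).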

How the data were processed

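RNA of 12 libraries was sequenced in 4 groups of 3. The deposited files hold raw whole-number counts of reads for each gene symbol, per the file headers. Another column of log2 values, TMM-scaled by the authors per the file headers, covers 57 of the 59 histone features and was not used for tests. HISAT2, HISAT, limma and mm10 are named per the submitters' processing notes. Which counter and strand setting were used is not given in the sources used here, so overlapping genes cannot be told apart.

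The histone features and gene lists were chosen with earlier results of these data known. The tests used edgeR 4.0.16 (R 4.3.3), with filterByExpr over the 4 groups (10421 features kept), TMM (factors 0.717 to 1.32), 1 robust quasi-likelihood model over 12 libraries without covariates, and Benjamini-Hochberg adjustment at 0.05. The 5 comparisons were IFNG against IL4 in each kind of mRNA, their interaction, and polysome-associated against total mRNA within each polarization. The text names all histones called in any comparison, the 3 most abundant of each class, the Hist3 and Hist4 genes and the joined feature, and of other lists up to 3 genes by adjusted p. Slbp, Nasp, Pcna, Cdt1, H2afj, H2afz, H3f3a and H3f3b, and the genes compared for near-equal counts or by pairs, were picked outside that rule after their values were seen.

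Same-numbered libraries of the polarizations were compared over genes in their deviations from the group means. They correlated at 0.517, 0.152 and 0.745 in total mRNA and 0.251, 0.153 and 0.352 on polysomes. IFNG total replicate 2 correlated most with IL4 total replicate 1. The numbers were used as pairs only in an alternative fit with a replicate block, and the main model ignored them. Alternatives were a replicate block, DESeq2 1.42.0 size factors and its Wald test, no filter, joined features left out, each library left out, and near-equal genes counted once. The procedure was also run on simulated counts for the comparison in total mRNA, with settings drawn from the main fit, and the outcome is not given here. Counting intervals cover counting error only.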

Additional observations from a re-analysis of the deposited data

How the results depend on the processing

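The count of histones lower with IFNG in total mRNA was 9, and it became 18 without the filter on low counts, 16 with the replicate block, and 4 to 16 when 1 library was left out. On polysomes 43 were lower, and 24 to 46 when 1 library was left out, the fewest without IL4 polysome replicate 3. Of the interaction, 0 histones were lower, 3 without the filter, and its median of -1.82 ranged from -2.17 to -0.94 when 1 library was left out. For polysome-associated against total mRNA, 0 to 2 histones were higher and 1 to 2 lower in IFNG cells when 1 library was left out, and 4 to 32 were higher in IL4 cells, where the main value was 26. Of the single-gene values followed here, the sign turned in total mRNA for Hist1h1e and Hist4h4 without IL4 total replicate 1, from -0.30 to 0.094 and from -0.79 to 0.16. With 1 library left out at a time they ranged from -0.56 to 0.094 and from -1.18 to 0.16. Not every histone was followed in this way, and others may also turn. Over all tested histones in total mRNA, 50 of 52 were negative with all libraries. Without IL4 total replicate 1 it was 49 of 55, and without IFNG total replicate 1 it was 51 of 55. The cause of these changes was not tested, beyond the fewer libraries or additional features that each alternative holds. The replicate block gave 44 lower on polysomes and 30 higher within IL4 cells. Within IL4 cells same-numbered libraries correlated at 0.016, 0.396 and 0.046 and share only a number. The block changed no other count by more than 1.5 times. Of all 10421 features tested, it called 896 lower on polysomes and 1635 higher within IL4 cells. Of the values for summary counts and medians, 407 kept their side and 18 moved. Of those for single genes, 1449 kept direction and call, 180 lost the call, 33 gained it and 2 turned sign. Depth limits the H2B genes most, since 3 counts correspond to up to 1.13 CPM and 6 of 16 H2B features were not tested.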

Other observations

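Within the H2A class, 2 sets of genes, picked after their values were seen, differed in their ratio from library to library. The counts of Hist1h2ad, Hist1h2ai, Hist1h2ab and Hist1h2af together were 1.40 to 1.75 times those of Hist1h2ag, Hist1h2ak, Hist1h2ah and Hist1h2ac in 9 of the 12 libraries, among them all 6 polysome libraries. In the other libraries, IFNG total replicates 1 and 2 and IL4 total replicate 2, the ratio was 0.108, 0.452 and 0.315. Hist1h2ad had 42 counts against 710 of Hist1h2ag in IFNG total replicate 1 and 4138 against 2466 in IL4 total replicate 1. Both polarizations hold libraries of each kind, and no test was made. The separation of Hist1h3a from Hist1h3c and Hist1h3e, described above, was seen in IL4 polysome replicate 3, where the ratio of the 2 H2A sets was 1.40.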
